A study of Homo sapiens with 9 samples.

Results

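CDK9 peaks were examined at 4 stretches of the genome that hold microRNA genes, in A375 cells, a human melanoma line. The stretches were fixed as hg19 windows: chr11:121955000-122080000 for MIR100HG, chrX:45600000-45640000 for MIR221 and MIR222 with their upstream host gene, chr17:57900000-57925000 for MIR21, and chr19:13940000-13955000 for MIR23A and MIR24-2. Every peak that overlapped a window was taken, which gave 133 of the 27469 peaks in the 6 deposited lists, and all 133 were CDK9 peaks. The windows were chosen from these same lists, because CDK9 peaks lay close together there, so their peak numbers are a description of the choice and carry no test.

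The lists came from chromatin immunoprecipitation and sequencing with an antibody against DDX21 or against CDK9, with 1 library for each antibody and treatment. Cells were given A771726 at 25 µM, A771726 at 25 µM with added nucleotides, or DMSO, the solvent control, for 24 h. A771726 is the active form of the drug leflunomide, and it inhibits DHODH, which cells need to make pyrimidines anew. The labels do not name the nucleotides or their dose, and the 3 input libraries were not used here. From a bulk culture, fewer cells with CDK9 at a site and less CDK9 per cell cannot be told apart.

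CDK9 is the kinase of the elongation factor P-TEFb, which releases paused RNA polymerase II and travels with it into the gene. DDX21 is an RNA helicase concentrated in the nucleolus that also binds polymerase II genes. MicroRNAs are cut from long polymerase II transcripts, so the genes around a hairpin, and not the hairpin alone, are where elongation factors are found. The mature microRNA then pairs with messenger RNAs mainly through its seed, bases 2 to 8.

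The mature microRNAs of these loci are shown because the members fall into groups by host transcript and by seed. Sequences are RefSeq's (GRCh38.p14), 5′ to 3′, with the seed in capitals. All 5 of the microRNA genes among the members were found in the table. The sixth member, MIR100HG, is a long noncoding RNA and the host of 3 microRNAs.
hsa-miR-221-3p: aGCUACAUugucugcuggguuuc
hsa-miR-222-3p: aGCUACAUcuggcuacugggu
hsa-miR-21-5p: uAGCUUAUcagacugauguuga
hsa-miR-23a-3p: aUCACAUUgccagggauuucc
hsa-miR-24-3p: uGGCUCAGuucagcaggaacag
hsa-miR-27a-3p: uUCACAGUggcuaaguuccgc
hsa-miR-100-5p: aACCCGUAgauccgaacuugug
hsa-let-7a-5p: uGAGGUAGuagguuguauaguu
hsa-miR-125b-5p: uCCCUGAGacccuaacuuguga
miR-221-3p and miR-222-3p had the same first 8 bases and so the same seed, which no other human mature microRNA of the table had. They come from 1 host, MIR222HG, and repress the messenger RNAs of KIT and of the cell cycle inhibitor CDKN1B. miR-21-5p, an abundant microRNA of many tumours that represses PDCD4, lies within VMP1, a protein-coding gene for a membrane protein of autophagy. MIR23A, MIR27A and MIR24-2 lie in that order in MIR23AHG and are cut from a single transcript, although their seeds differ. MIR100HG holds MIR100, MIRLET7A2 and MIR125B1, and let-7a is known for repressing RAS genes and HMGA2. The RefSeq table is of another build than the peaks, so no hairpin, exon or start site was placed under a peak. In that table MIR100HG is also longer than its window, so the window cannot hold all of the gene.

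The CDK9 lists held 290 peaks with A771726, 3099 with A771726 plus nucleotides and 3462 in DMSO. The number of reads in each library was not at hand, and the number of fragments over each summit, the pileup, was worked out from the deposited fold enrichment and −log10 p. Relative to DMSO, the sequenced tags were estimated at 1.14 for A771726 and 1.05 for A771726 plus nucleotides. The shortest peak was 50 bp with A771726, 129 bp with nucleotides and 128 bp in DMSO. The median width was 96 bp with A771726 and 186 bp in both other lists, so covered lengths are not on an equal footing. The shortest peak of a list was taken as its fragment length, which the labels do not give, and a shorter fragment length gives lower pileups from the same reads, so pileups with A771726 are not on an equal footing with the others. The lowest −log10 p of a list was 6.06 with A771726, 4.61 with nucleotides and 4.68 in DMSO, so the weakest peaks listed with A771726 were stronger ones. Of the 60 DMSO peaks in the windows, 57 reached the −log10 p of 6.06, beside 3223 of the 3462 in the whole DMSO list. With 1 library per treatment there is no replicate error. Intervals are exact 95% intervals that cover counting error only and treat peaks or fragments as independent, which neighbouring peaks of a gene are not.

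CDK9 peaks in the 4 windows were few with A771726 and about as many with added nucleotides as in DMSO. The windows held 12 CDK9 peaks over 1539 bp with A771726, 61 over 22281 bp with A771726 plus nucleotides and 60 over 21024 bp in DMSO. The whole CDK9 list was also shortest with A771726. As a share of its list, the windows held 4.14% of CDK9 peaks with A771726, 1.97% with nucleotides and 1.73% in DMSO. Each CDK9 list was then limited to its 290 peaks with the highest −log10 q. The windows then held 12, 9 and 11 peaks in the same order. This total rests on MIR21, with 8, 3 and 2 peaks, where the A771726 peaks merge into 1 within 1 kb. MIR100HG held 3, 3 and 7 peaks. MIR221 and MIR222 held 1, 2 and 1, and MIR23A and MIR24-2 held 0, 1 and 1. Of the 60 DMSO peaks, 7 overlapped an A771726 peak, or 11.7% (4.82 to 22.6), beside 5.40% over the whole DMSO list. For DMSO peaks outside the windows, matched to the window peaks by rank, the share was 7.67%. Both values lie inside the interval. Among the 346 strongest DMSO peaks by −log10 q, 3 of the 11 window peaks had an A771726 peak, beside 29.8% (25.0 to 34.9) of all 346.

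**Figure D1:**
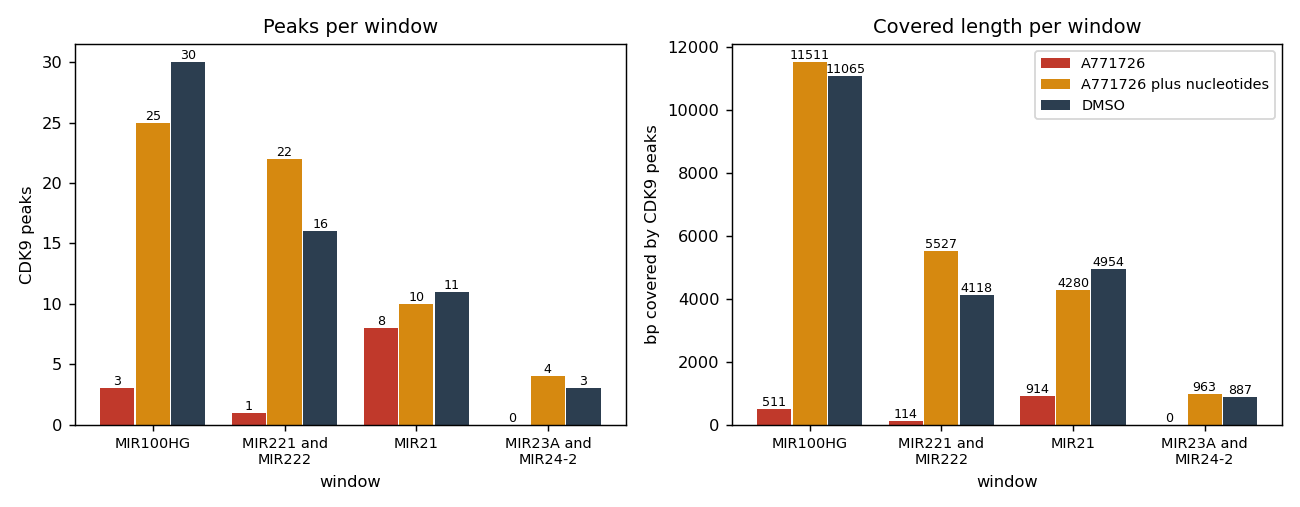
Number of CDK9 peaks (left) and base pairs covered by them (right) in each window with A771726, A771726 plus nucleotides and DMSO, 1 library each and hence no error bars. The A771726 bars are the lowest in every window, and at MIR21 the number (8, 10 and 11 peaks) differs less between treatments than the covered length (914, 4280 and 4954 bp).

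All of the CDK9 peaks kept with A771726 lay where the other libraries also had peaks. Each of the 12 A771726 peaks overlapped a DMSO peak (73.5 to 100%), beside 77.6% of the whole A771726 list. Each also met a peak found with nucleotides (73.5 to 100%), beside 76.6%. Both whole-list values lie inside the intervals, and 8 of the 12 peaks were those of MIR21. From the side of DMSO, 37 of 60 peaks met a peak found with nucleotides, or 61.7% (48.2 to 73.9), beside 45.2% over the whole list. This share depends on rank by −log10 q: it was 91.6% for the 346 strongest DMSO peaks and 24.5% for the 347 weakest. For DMSO peaks outside the windows, matched to the window peaks by rank, it was 49.5%, which lies inside the interval. The remaining shares of this paragraph and those of single windows were not matched by rank. From the side of nucleotides, 39 of 61 peaks overlapped a DMSO peak, or 63.9%, beside 50.6% over that list, and 6 of 61 overlapped an A771726 peak, or 9.84% (3.70 to 20.2), beside 5.74%. A771726 left 53 of the DMSO peaks unmatched, and 30 of these had a peak with nucleotides, or 56.6% (42.3 to 70.2), beside 42.7%. The 37 shared DMSO peaks had a median of 24 fragments at the summit and a median width of 346 bp. The 23 DMSO peaks not found with nucleotides had 18 fragments and 166 bp. Over the whole DMSO list these medians were 27 fragments and 241.5 bp for shared peaks, and 20 fragments and 164 bp for the others.

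MIR100HG had the longest row of CDK9 peaks. Its window held 3 peaks with A771726, 25 with A771726 plus nucleotides and 30 in DMSO, which covered 511, 11511 and 11065 bp. In DMSO they ran over 62.6 kb, from 122011349 to 122073949, with a median gap of 730 bp between neighbours. With nucleotides they ran over 60.8 kb with a median gap of 448.5 bp. No CDK9 peak of any list fell in the part of the window before position 122007854.

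The 3 strongest DMSO peaks of MIR100HG by −log10 q lay far apart along this row. The top one, chr11:122050775-122051689, had 53 fragments at its summit (39.7 to 69.3) and its fold enrichment was 12.1. Next came chr11:122067745-122068362, with 62 fragments (47.5 to 79.5) and a fold enrichment of 8.70. The third, chr11:122027576-122028168, had 41 fragments (29.4 to 55.6) and a fold enrichment of 11.3. The first and the second were the only ones of the 30 DMSO peaks with an A771726 peak. That share, 6.67% (0.818 to 22.1), was near the 5.40% of the whole DMSO list. The first held A771726 peaks at chr11:122050935-122050984, with 10 fragments (4.80 to 18.4), and at chr11:122051202-122051512, with 14 fragments (7.65 to 23.5). The second held the A771726 peak at chr11:122067938-122068087, with 15 fragments (8.40 to 24.7). The 28 DMSO peaks without an A771726 peak had 14 to 41 fragments, below both of those that had one.

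With nucleotides the row of MIR100HG was present again but was not the same set of peaks. The strongest peak with nucleotides, chr11:122050819-122051987, had 61 fragments (46.7 to 78.4) and lay on the top DMSO site. Of the 30 DMSO peaks, 14 overlapped a peak with nucleotides, or 46.7% (28.3 to 65.7), a share near the 45.2% of the whole list. Those 14 had a median width of 575.5 bp and a median of 29.5 fragments, against 164.5 bp and 18.5 fragments for the 16 not found. In the whole DMSO list shared peaks were also wider and taller, with medians of 241.5 bp and 27 fragments against 164 bp and 20. Peaks of the 3 lists together made 37 separate sites, of which 2 were in all lists, 10 in nucleotides and DMSO, 9 with nucleotides alone and 16 in DMSO alone. The 4 DMSO peaks past position 122068644, with 16 to 24 fragments, had no counterpart with nucleotides. Peaks of the 2 libraries overlapped over 7387 bp, which is 66.8% of the DMSO length and 64.2% of the length with nucleotides.

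**Figure D2:**
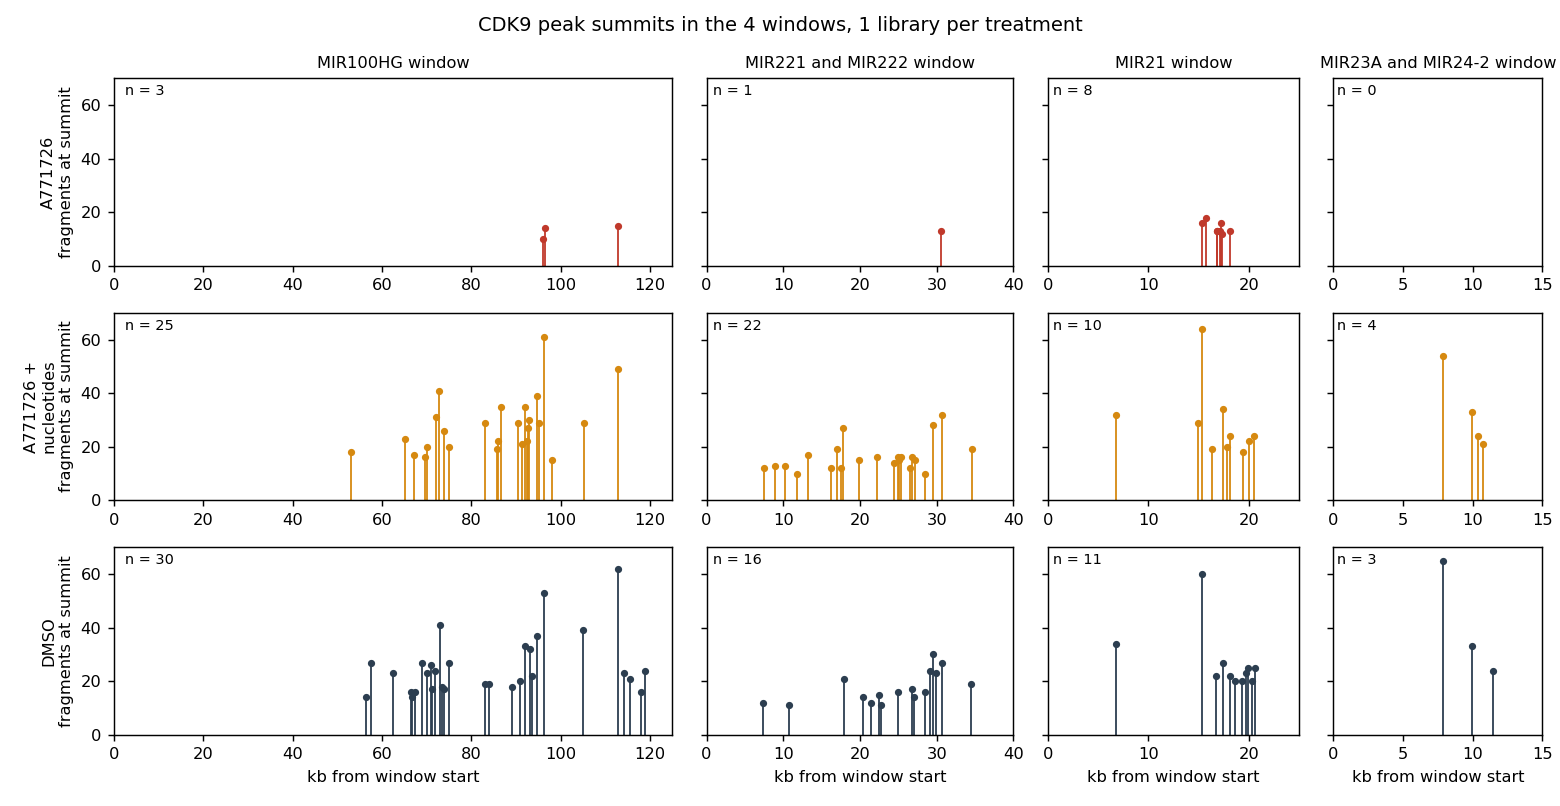
Fragments at the summit of each CDK9 peak (vertical axis, number) against its distance from the window's start (horizontal axis, kb), with A771726 in the top row, A771726 plus nucleotides in the middle and DMSO at the bottom, 1 library each. The few A771726 summits, with 10 to 18 fragments, stand where the other rows also have peaks, and at MIR21 and at MIR23A with MIR24-2 the tallest summits of the lower rows stand at like positions.

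MIR221 and MIR222 had a row of low CDK9 peaks, and nearly all were missing with A771726, as over the whole DMSO list. An A771726 peak met 1 of the 16 DMSO peaks, or 6.25% (0.158 to 30.2), a share near the 5.40% of the whole DMSO list. The window held 1 peak with A771726, 22 with A771726 plus nucleotides and 16 in DMSO, covering 114, 5527 and 4118 bp. The DMSO row ran over 27.5 kb, from 45607254 to 45634727, and the row with nucleotides over 27.4 kb. Summits were lower than in the other windows, with a median of 15 fragments with nucleotides and 16 in DMSO, and so were the backgrounds, at 2.08 fragments in both lists. Over the whole lists the median background was 4.85 fragments with nucleotides and 4.16 in DMSO.

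Of the 16 DMSO peaks, 15 had a −log10 p at or above the lowest listed with A771726, and 6 had a height (the pileup over its list's lowest background) at or above the lowest height listed there. At MIR21 both held for 11 of 11, and 4 of these had an A771726 peak. At MIR23A and MIR24-2 both held for 3 of 3, and 0 had an A771726 peak. At MIR100HG they held for 28 and 23 of 30, and 2 of the 30 had an A771726 peak. Over the whole DMSO list they held for 3223 and 2730 of 3462, and 187 of the 3462 had an A771726 peak. The part of summit height in the missing A771726 peaks was not tested.

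The strongest DMSO peaks of this locus stood next to each other near the far end of the row. The top one, chrX:45629372-45629608, had 30 fragments (20.2 to 42.8) and a fold enrichment of 9.13. Its neighbours chrX:45629691-45630001 and chrX:45628957-45629172 had 23 (14.6 to 34.5) and 24 fragments (15.4 to 35.7). None of these 3 had an A771726 peak, and the second, from 45629691, had none with nucleotides either. The only A771726 peak, chrX:45630620-45630733, had 13 fragments (6.92 to 22.2) and lay on the DMSO peak from 45630425 to 45630757, which had 27 fragments. It was number 285 of the 290 A771726 peaks by −log10 q and so among the weakest called. The same site held the strongest peak with nucleotides, chrX:45630361-45630825, with 32 fragments (21.9 to 45.2).

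At MIR221 and MIR222 the list with nucleotides was the fullest. Of the 16 DMSO peaks, 11 overlapped a peak with nucleotides, or 68.8% (41.3 to 89.0), beside 45.2% over the whole DMSO list. Of the 22 peaks with nucleotides, 11 overlapped a DMSO peak, a share near the 50.6% of that whole list, and 11 did not. The 3 lists made 26 separate sites, with 1 in all lists, 9 in nucleotides and DMSO, 11 with nucleotides alone and 5 in DMSO alone. Peaks within 1 kb of each other, when merged, left 1 with A771726, 11 with nucleotides and 8 in DMSO. The larger number with nucleotides rests on low peaks: 16 of the 22 ranked below the middle of their list by −log10 q, and 9 with nucleotides and 9 in DMSO remained at a −log10 q of at least 5.

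MIR21 had several narrow CDK9 peaks with A771726, within a short stretch. Its window held 8 peaks with A771726, 10 with A771726 plus nucleotides and 11 in DMSO, which covered 914, 4280 and 4954 bp. It was the only one of the 4 windows where the A771726 list alone gave a run, meaning 5 or more peaks with gaps of 10 kb or less, and that list had 10 such runs in all. The near equal numbers come with narrow peaks, with a median width of 91.5 bp against 318.5 bp with nucleotides and 345 bp in DMSO. Narrow peaks are a trait of the whole A771726 list, where the median width was 96 bp. After merging peaks within 1 kb there were 1, 2 and 2. With A771726, MIR21 then had 1 peak against 2 at MIR100HG, and at a −log10 q of at least 5 both loci had 2.

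All 8 A771726 peaks of MIR21 lay within 2.85 kb, from 57915306 to 57918151. The strongest, chr17:57915651-57915917, had 18 fragments (10.7 to 28.4) and a fold enrichment of 9.14. The next by −log10 q was chr17:57917241-57917327, with 16 fragments, and the peak that opened the stretch, chr17:57915306-57915452, also had 16. The other peaks started at 57916708, 57916879, 57917091, 57917383 and 57918028 and had 12 or 13 fragments each. They fell on only 4 of the 11 DMSO peaks, a share of 36.4% (10.9 to 69.2) beside 5.40% over the whole DMSO list, and 4 of them lay on the single DMSO peak from 57916889 to 57917751.

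In DMSO the row at MIR21 was longer on both sides. The strongest DMSO peak, chr17:57914901-57916534, was the widest of the window at 1634 bp, with 60 fragments (45.8 to 77.2) and a fold enrichment of 8.43. The second, chr17:57906695-57907016, stood 7884 bp before it, with 34 fragments (23.5 to 47.5) and no A771726 peak. The third, chr17:57919616-57919751, had 23 fragments. Past the last A771726 peak, DMSO had 6 peaks over 1545 bp, from 57918543 to 57920914, with 20 to 25 fragments, and A771726 had none. With nucleotides 3 peaks lay there, from 57919329 to 57920719, with 18 to 24 fragments. The DMSO peaks inside the A771726 stretch had 22 to 60 fragments, a range that lies partly over that of the peaks past it.

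With nucleotides and in DMSO the rows at MIR21 largely coincided. Of the 11 DMSO peaks, 10 overlapped a peak with nucleotides, or 90.9% (58.7 to 99.8), beside 45.2% over the whole DMSO list. All 10 peaks with nucleotides overlapped a DMSO peak, beside 50.6% over that whole list. The one left out was the third peak by −log10 q, which is 136 bp wide. The strongest peak with nucleotides, chr17:57915192-57916059, had 64 fragments (49.3 to 81.7) and lay inside the strongest DMSO peak.

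MIR23A and MIR24-2 had few CDK9 peaks, led by 1 strong site. The window held 0 peaks with A771726, 4 with A771726 plus nucleotides and 3 in DMSO, covering 0, 963 and 887 bp. It therefore held no run of 5 peaks in any single list. The DMSO list made a run of 5 only with peaks beyond the window, which ended at 13962305, and the nearest of them lay 2.97 kb past the window's end with 26 fragments. The strong site, chr19:13947711-13948144, had 65 fragments in DMSO (50.2 to 82.8) and a fold enrichment of 10.1, and was number 15 of the 3462 DMSO peaks. With nucleotides the peak chr19:13947684-13947975 had 54 fragments (40.6 to 70.5), and the summits of both lay 1 bp apart. A771726 gave no peak there. The window's share of DMSO peaks with an A771726 peak was 0 of 3 (up to 70.8%), beside 5.40% over the whole DMSO list. The second DMSO peak, chr19:13949866-13950063, had 33 fragments, and its counterpart with nucleotides had 33 as well. The last DMSO peak, chr19:13951263-13951517, had 24 fragments and no counterpart.

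Outside the windows, the nearest CDK9 peaks lay at very different distances. The nearest DMSO peaks past the edges of the MIR100HG window were 647 kb after it and 1748 kb before it, with 23 and 25 fragments. At MIR221 and MIR222 the nearest peak before the window lay 25.6 kb away, with 26 fragments with nucleotides and 20 in DMSO, and closed another run of 7 peaks. After that window the nearest peak was 22.9 kb away with nucleotides and 27524 kb away in DMSO. At MIR21 a site 35.7 kb before the window had a peak in all 3 lists, with 16 fragments with A771726, 40 with nucleotides and 28 in DMSO, while after the window the nearest DMSO peak was 1474 kb away. Before the window of MIR23A and MIR24-2 the nearest DMSO peak was 661 kb away.

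At sites shared by 2 lists, summits with nucleotides were close to those in DMSO. Over the 37 shared DMSO peaks, the height with nucleotides divided by that in DMSO had a median of 0.988 and a range of 0.588 to 1.45, beside a median of 1.00 over the 1564 sites shared by the whole lists. As above, height is scaled to the lowest background in that library's list. It was lower with nucleotides at 21 of these 37 sites, beside 49.7% of the sites shared over the whole lists. The median was 0.990 at MIR100HG (14 sites), 0.941 at MIR221 and MIR222 (11 sites) and 1.02 at MIR21 (10 sites). These medians lie well within the range over sites.

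With A771726 only 7 DMSO peaks could be compared, and the direction depended on the scale. Pileups were lower with A771726 at all 7, at 0.242 to 0.593 of the DMSO pileup. Divided by the lowest background of each list, heights ran from 0.544 to 1.33 of those in DMSO, with a median of 1.08, beside 0.948 over the 187 sites shared by the whole lists. They were lower at 3 of the 7, beside 55.1% of the sites shared over the whole lists. The 3 lower ones were the tallest in DMSO, namely both sites of MIR100HG, at 0.594 and 0.544, and the strongest site of MIR21, at 0.674. Pileups at the 7 sites ran only from 13 to 18 with A771726 against 22 to 62 in DMSO. The order of the ratios therefore follows from the DMSO values and is no sign that tall sites fell more. A site enters this comparison only if A771726 still gave a peak there, so the values do not describe the sites that were lost.

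**Figure D3:**
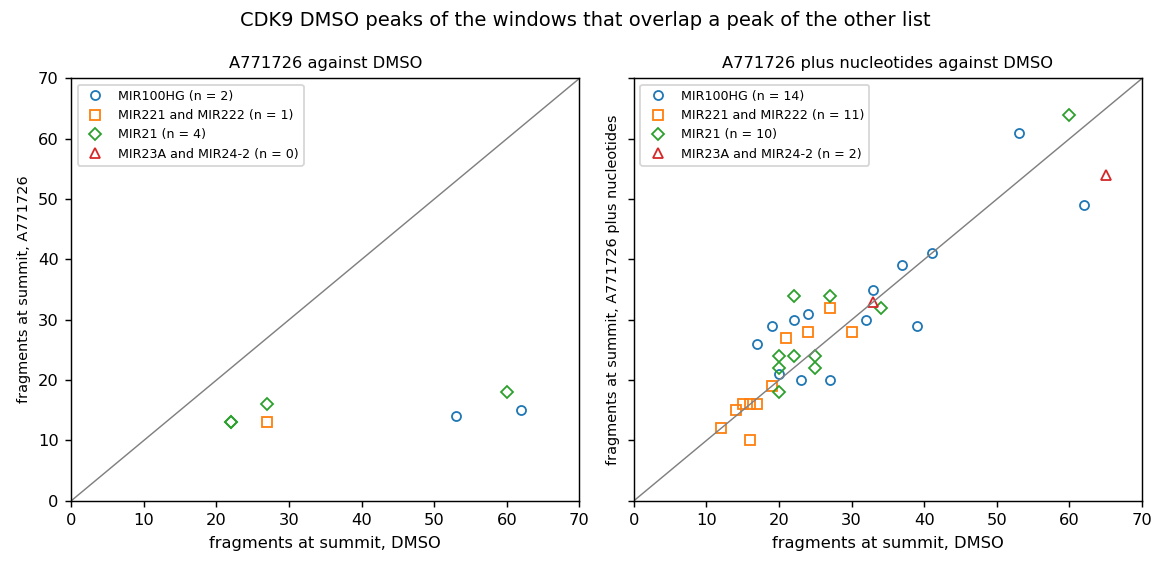
Fragments at the summit of each DMSO CDK9 peak of the windows (horizontal axis) against the tallest overlapping peak with A771726 (left, 7 sites) or A771726 plus nucleotides (right, 37 sites), with a line at equal values. All points lie under the line at left, where pileups with A771726 are 13 to 18 fragments and were not on an equal footing with DMSO, and they scatter on both sides of it at right.

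DDX21 had no peak in any of the 4 windows, under any treatment. None of the CDK9 peaks there overlapped a DDX21 peak of the same treatment: 0 of 12 with A771726 (up to 26.5%), beside 15.5% of the whole list, 0 of 61 with nucleotides (up to 5.87%), beside 13.6%, and 0 of 60 in DMSO (up to 5.96%), beside 17.8%. Of the 346 strongest CDK9 DMSO peaks, 29.2% (24.5 to 34.3) overlapped a DDX21 peak, and 0 of the 11 window peaks among them did. The nearest DDX21 peak in DMSO was 240 kb from the MIR100HG window, 666 kb from that of MIR221 and MIR222, 45.2 kb from that of MIR21 and 54.6 kb from that of MIR23A and MIR24-2. The DDX21 site 45.2 kb past the MIR21 window was tall in all lists, with 95 fragments with A771726, 195 with nucleotides and 191 in DMSO. Peak lists show only what passed the threshold, so weaker DDX21 signal in the windows was not examined.

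Among long rows of CDK9 peaks in these cells, the microRNA loci differed in how many peaks were left with A771726. With the 3 CDK9 lists pooled, there were 238 such runs. MIR100HG ranked number 2 by peaks, MIR221 and MIR222 shared rank 4, MIR21 shared rank 9 and MIR23A with MIR24-2 shared rank 58. The number of A771726 peaks per 100 DMSO peaks was 10.0 at MIR100HG, 6.25 at MIR221 and MIR222, 72.7 at MIR21 and 0 at MIR23A and MIR24-2. The value at MIR21 counts narrow peaks on only 4 of its 11 DMSO peaks. Merged within 1 kb, MIR21 had 1 peak with A771726 and 2 in DMSO. The number was 22.1 over the 234 other runs together, and single ones among them ran from 0 to 400. Of these, 146 had no A771726 peak and 9 had 5 or more. Peaks with nucleotides per 100 DMSO peaks were 83.3, 137.5, 90.9 and 100 in the same order of loci, and 96.9 over the other runs. No run of the 4 loci held a DDX21 peak in any list, and neither did 192 of the 234 other runs, or 82.1%. Ranks by peak number include the lists being compared, and runs differ in length and strength, so these values place the loci among the runs and are no test.

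**Figure D4:**
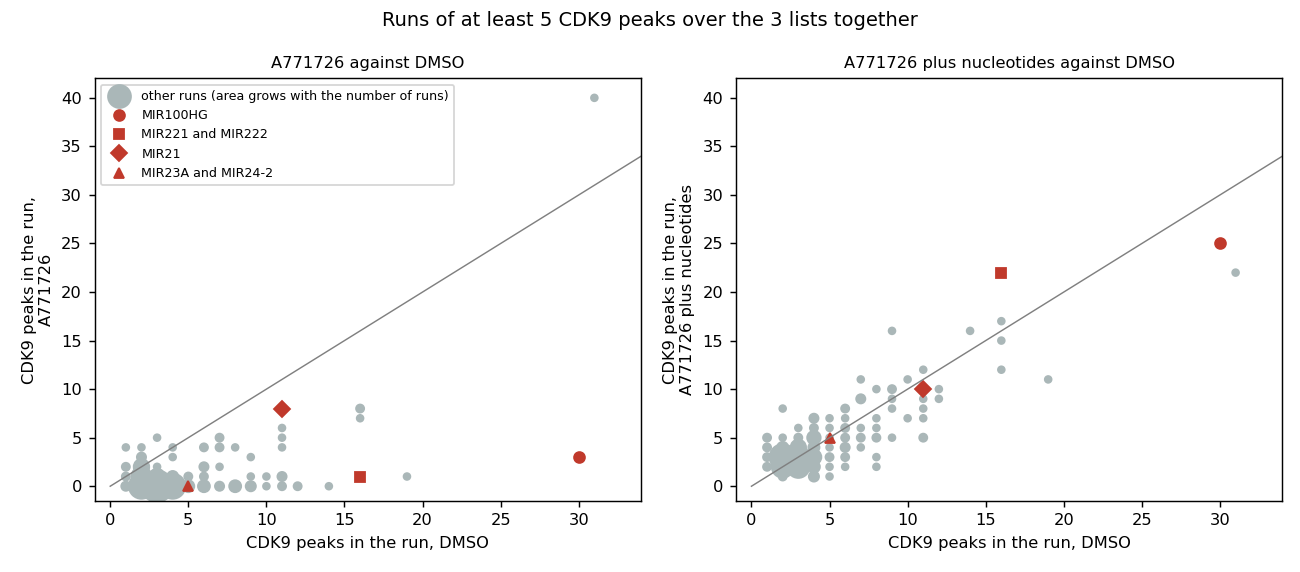
CDK9 peaks in each pooled run with A771726 (left) or A771726 plus nucleotides (right) against the number in DMSO, with a line at equal numbers. The 4 microRNA loci are marked in red and the 234 other runs in grey, and MIR21 (8 against 11) lies near the line at left while MIR100HG (3 against 30) and MIR221 with MIR222 (1 against 16) lie far below it. The 8 A771726 peaks of MIR21 lie on only 4 of its 11 DMSO peaks.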

How the data were processed

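DDX21 and CDK9 were immunoprecipitated from A375 cells under 3 treatments. Per the submitters' processing notes, the authors used Bowtie, MACS2 2.0 and hg19. What each tool did, with which settings and controls, is not given in the sources used here. A deposited list is of 1 library and gives per peak a fold enrichment (a ratio), a −log10 p, a −log10 q, a score that was not used, and the summit. Samples were grouped by title.

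The windows, members and lists were chosen with earlier results of these data known. A peak belonged to a window if it overlapped it, and was shared if it overlapped by at least 1 bp. Pileups were recovered as the whole number that met (pileup + 1)/(background + 1) and a Poisson upper tail within 0.001 of the deposited −log10 p, for 100% of peaks. Tags relative to DMSO were estimated as lowest background over shortest peak, which was taken as the fragment length. Shares have Clopper-Pearson intervals and pileups exact Poisson intervals. No p-value was computed. The peaks named are, in each window, the 3 DMSO peaks and the peak with nucleotides with the highest −log10 q and every A771726 peak. Others were named after their values were seen. Python 3.11.15, pandas 2.3.3 and SciPy 1.17.1 were used, and the steps were tested on simulated data. The settings varied were a −log10 q of at least 5, equal numbers of top peaks, merging within 1 kb, peaks wholly inside a window, 50% overlap, summits within 250 bp and unscaled pileups. The same lowest −log10 p in the lists of an antibody was added after seeing the data.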

Additional observations from a re-analysis of the deposited data

How the results depend on the processing

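With a −log10 q of at least 5, CDK9 peaks in the windows numbered 4 with A771726, 37 with nucleotides and 38 in DMSO, and after merging peaks within 1 kb 4, 26 and 24. With the 290 top peaks of each CDK9 list, 9 were left with nucleotides and 11 in DMSO, and the share of DMSO peaks with an A771726 peak was 27.3% of those 11. Over all 290 top DMSO peaks that share was 32.4%, while without this limit the windows' 11.7% lay above the list's 5.40%. The median height ratio of A771726 over DMSO was 0.481 without scaling and 0.634 with a −log10 q of at least 5 in both lists, and that of nucleotides over DMSO was 1.05 without scaling. The other 44 of 56 alternative values for the windows together stayed within 1.5 times the number reported, within its interval or, for a height ratio, within the range over sites. These include 0 DDX21 peaks and a share of 0% for CDK9 peaks on DDX21 under every setting run. The settings only dropped, merged or re-matched peaks, and the nearest DDX21 peak of any list lay 36.1 kb from a window. Those values of 0 were therefore bound to stay and are no sign of stability. Peaks wholly inside a window changed no number. Of 120 peak numbers for single windows, 23 moved by more than 1.5 times or to 0. No replicate could be left out, and no paired analysis was possible because each antibody and treatment had 1 library. No total of reads was at hand, so depth was only estimated.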
